A study of Mus musculus with 6 samples.

Results

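Thy1 and 6 genes of the Ly6 family (Ly6a, Ly6c1, Ly6c2, Ly6d, Ly6e and Ly6k) were followed in splenic γδ T cells sorted by expression of the T-box transcription factor Eomes. The 7 genes were chosen by name, with every non-control probe that carries the name, out of 39429 probes and 30342 names on the array. Of the 7, 6 had a probe, Ly6c1 had a pair of them, and 7 probes were therefore measured. No probe analysed here carries the name or the RefSeq accession of Ly6c2, so that gene has no value of its own. The mice were Eomes-IRES-GFP reporters (Eomestm1.1Twa) on a C57BL6 background, an allele in which green fluorescent protein (GFP) is made from the Eomes transcript and which both groups carried. The Eomes-positive group was CD3+ TCRγδ+ TCRβ- GFP+ and the Eomes-negative group was CD3+ TCRγδ+ TCRβ- GFP-, with 3 arrays each from 3 independent sorts that gave both groups. Before sorting, cells bearing B220, CD4 or CD8β had been depleted. Each sort pooled 4 to 6 spleens, so a value is not that of a single mouse, and mice were 9 weeks old in sort 1, 9.5 weeks in sort 2 and 7.5 weeks in sort 3.

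The Ly6 and Thy1 genes encode small proteins that are held on the outer face of the cell membrane by a glycosylphosphatidylinositol (GPI) lipid anchor instead of a transmembrane segment. Ly6 proteins carry the three-finger fold of the Ly6/uPAR family, and many of their genes lie side by side in a cluster on mouse chromosome 15. Thy1 (CD90) belongs to the immunoglobulin superfamily, lies on chromosome 9 and is the classical surface marker of mouse T cells. Ly6a (Sca-1) marks blood stem cells and is also carried by activated and memory lymphocytes, and Ly6C, the product of the closely related genes Ly6c1 and Ly6c2, is a marker of inflammatory monocytes and of memory and effector T cells.

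The probes on which the comparison rests are shown 5′ to 3′, because the signal of a 60-base probe is the only evidence that separates these related transcripts. Each is given by its last 30 bases, and the capitals in the Thy1 probe mark the polyadenylation signal AATAAA.
Ly6c1, upstream probe: ctgcattgctcaaaacatagaattgattga
Ly6c1, downstream probe: tctggggtcctgcagggttcccatgtatgc
Ly6a: agtgtgtgaaataccatgttttgcctttat
Thy1: aggaaagaaaactgcacAATAAAaccaagc
In the mm9 build of the scanner files the Ly6c1 probes lie on the minus strand at chr15:74877785-74877844 and chr15:74875495-74875554, with starts 2290 bases apart. The Ly6a probe lies on the minus strand at chr15:74825553-74825612 and the Thy1 probe on the plus strand at chr9:43856591-43856650. In a BLAST search (word size 7) no other probe of the array shared 20 or more identical bases with either Ly6c1 probe. The transcripts of Ly6c2 could not be searched, and what part Ly6c2 has in the Ly6c1 signal was not tested. Their promoters could be compared, which does not measure the likeness of the transcripts that the probes bind. Shown is an aligned stretch of the RefSeq promoter sequences (GRCm38.p6, minus strand, chr15:75048984-75049056 for Ly6c1 and chr15:75112149-75112221 for Ly6c2). Among stretches wholly upstream of both annotated genes it is the longest without gaps, and stretches that reach into a gene were left out. Of its 73 bases 61 were identical (83.6%), and the capitals mark the 12 that differ.
Ly6c1: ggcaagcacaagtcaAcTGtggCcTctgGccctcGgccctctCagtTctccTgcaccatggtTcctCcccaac
Ly6c2: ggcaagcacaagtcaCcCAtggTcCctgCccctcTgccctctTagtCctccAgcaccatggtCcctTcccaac
Of the 7 genes, Ly6c1 and Ly6c2 were the ones with an entry in the promoter table.

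A level is the log2 signal of a probe after subtraction of its array's 75th percentile, errors of levels are SD over 3 arrays, and differences are Eomes-positive minus Eomes-negative. Sorts 1 and 2 started from 9 ng of RNA and sort 3 from 4 ng, with raw 75th percentiles of 1581 to 1684 for sorts 1 and 2, and of 534 (Eomes-positive) and 549 (Eomes-negative) intensity units for sort 3, and 47.7% to 56.6% of probes were well above background. Precision is limited by the small number of arrays. Eomes itself, on which the cells were sorted, read 5.31, 4.96 and 4.48 in Eomes-positive cells and 0.72, 0.88 and -1.14 in Eomes-negative cells, in the direction that the labels give. The 6 tested T cell markers (Cd3d, Cd3e, Cd3g, Cd247, Lat and Zap70) were well above background on all 6 arrays and their summed level was 290 to 375 times the 75th percentile in Eomes-positive cells, against 306 to 408 times in Eomes-negative cells. Monocyte, macrophage and neutrophil markers stood out in both arrays of sort 2, with summed levels of 281 in Eomes-positive and 278 in Eomes-negative cells, against 15.9 to 38.4 on the other 4 arrays. All 7 member probes were well above background on all 6 arrays, and none was saturated.

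Of the 6 measured members, 5 had lower mean levels in Eomes-positive cells and 1, Ly6c1, had a higher one. The sign was the same in all 3 sorts for each of the 6, and how many of all genes share that was not counted. The median difference of the 6 was -0.71, and that of all 16413 tested genes was -0.01. In a limma fit of group alone, 0 of the 6 passed an adjusted p threshold of 0.05 over all genes, where 2.77% of tested genes passed. Without adjustment 3 would have passed, which were Ly6a, Ly6c1 and Thy1, as would 2009 of all 16413 genes. With the sort number as a block, which uses the differences within each sort, 2 of the 6 passed, Ly6a and Thy1. Both were lower in Eomes-positive cells, a direction in which 4.33% of all genes passed, while 0 were higher, a direction in which 3.66% passed (7.98% in either direction). The groups did not overlap for 4 of the 6 members, and 18.2% of tested genes had groups that did not overlap. In bulk RNA, fewer cells that express a gene and less of its RNA per cell cannot be told apart.

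**Figure D1:**
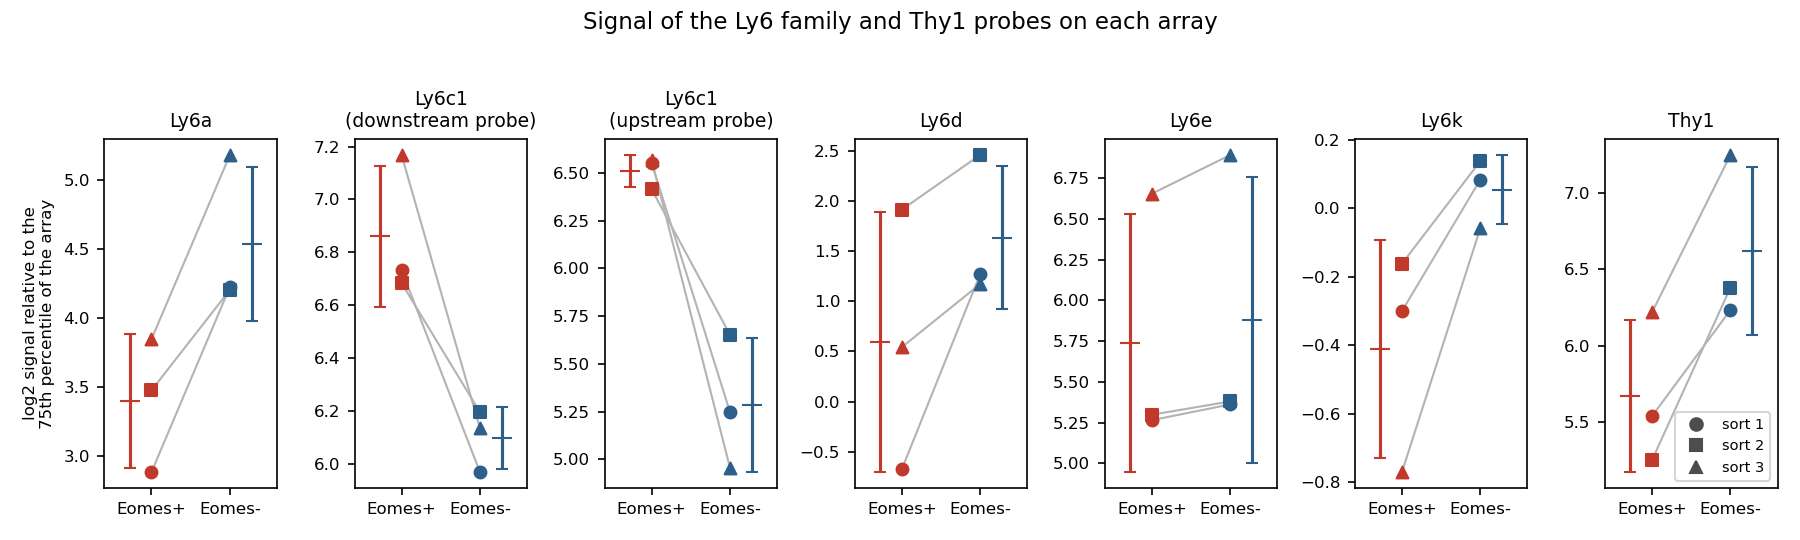
Log2 signal of each member probe minus that of its array's 75th percentile (vertical axis, scaled separately for each probe), for Eomes-positive cells (left, red) and Eomes-negative cells (right, blue). Symbols mark the sort, grey lines join the arrays of a sort, and bars give the mean and SD of 3 arrays. Lines run upward to Eomes-negative cells for Ly6a, Ly6d, Ly6e, Ly6k and Thy1 and downward for both Ly6c1 probes.

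Thy1, the pan-T cell glycoprotein, read 5.54, 5.25 and 6.22 in Eomes-positive cells and 6.23, 6.38 and 7.25 in Eomes-negative cells in sorts 1, 2 and 3. The groups did not overlap, but only narrowly, since the Eomes-positive array of sort 3 lay just below the Eomes-negative array of sort 1. Within a sort the Eomes-positive array was lower each time, by differences of -0.69, -1.13 and -1.03. The mean difference was -0.95 (SE 0.37, 95% interval -1.88 to -0.03), a level 1.93 times as high in Eomes-negative cells, and limma's adjusted p was 0.387. With the sort as a block the SE was 0.13, the interval -1.30 to -0.61 and the adjusted p 0.0294. That call was lost without any 1 sort, as the adjusted p with the block was 0.0877 without sort 1, 0.127 without sort 2 and 0.117 without sort 3. The differences there were -1.08, -0.86 and -0.91. Calls over all genes fell too, with 710 genes lower in the full block fit and 99, 274 and 179 in these. With the slide as a block the difference was -0.88 and the adjusted p 0.0880, a fit to which the Eomes-positive array of sort 2, alone on slide 2, adds nothing. Of 3 other probes with 20 or more bases in common with the Thy1 probe, that of Ptpn13, a phosphatase gene on chromosome 5, shared the most, 27 of 35 aligned. It read -3.45, -3.90 and -3.73 in Eomes-positive cells and -0.86, -1.30 and -0.61 in Eomes-negative cells, and binding of one transcript to the other probe was not tested.

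Ly6a, which encodes Sca-1, read 2.88, 3.48 and 3.85 in Eomes-positive cells and 4.23, 4.21 and 5.18 in Eomes-negative cells. Every Eomes-positive array lay below every Eomes-negative one, and in both groups the array of sort 3 was the highest. The differences within sorts were -1.34, -0.73 and -1.34. The mean difference was -1.14 (SE 0.37, 95% interval -2.06 to -0.21), a level 2.20 times as high in Eomes-negative cells, with an adjusted p of 0.274 in the limma fit without the block. With the sort as a block the SE was 0.17, the interval -1.59 to -0.68 and the adjusted p 0.0359. Leaving out sort 2, whose arrays had the highest myeloid markers, gave -1.34 with an adjusted p of 0.0498 in the block fit, while without sort 1 it was 0.150 and without sort 3 0.132. With the slide as a block the difference was -1.33 and the adjusted p 0.0272, and 1.55% of all genes were called lower in that fit. The Eomes-positive array of sort 2, alone on slide 2, adds nothing to that fit, and sort 2 had the smallest difference. On slide 1, with an Eomes-positive array of sort 1 beside the Eomes-negative arrays of sorts 1 and 2, the difference was -1.33, and on slide 3, with the pair of sort 3, it was -1.34.

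Ly6c1 had positive differences at both of its probes. The downstream probe read 6.73, 6.68 and 7.17 in Eomes-positive cells and 5.97, 6.19 and 6.13 in Eomes-negative cells, and the groups did not overlap. Its mean difference was 0.76 (SE 0.18, 95% interval 0.31 to 1.22), or 1.70-fold, with an adjusted p of 0.125 without the sort block and 0.0563 with it. The upstream probe read 6.55, 6.41 and 6.57 in Eomes-positive cells and 5.25, 5.65 and 4.95 in Eomes-negative cells, again without overlap. The SD there was 0.08 over the Eomes-positive arrays and 0.35 over the Eomes-negative arrays. Its mean difference was 1.23 (SE 0.21, 95% interval 0.70 to 1.75), or 2.34-fold. In a limma fit with every probe as a feature its adjusted p was 0.0529, and it was 0.0463 with the sort as a block, a fit in which 3.05% of the 21131 probes were called higher. The downstream probe missed the threshold in the same fits, with adjusted p-values of 0.145 and 0.0632. Averaging both probes gave a difference of 0.99 with an adjusted p of 0.0533. Over the 6 arrays the probes had a Pearson r of 0.90, which is a description of arrays that share sorts.

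Both Ly6c1 probes had their smallest difference in sort 2, with 0.49 downstream and 0.76 upstream. In sort 1 the values were 0.76 and 1.30, and in sort 3 they were 1.04 and 1.61. Because Ly6C is also a monocyte marker, the myeloid markers are given beside it. In sorts 1, 2 and 3 their summed level was 15.9, 281 and 38.4 in Eomes-positive cells and 21.4, 278 and 36.9 in Eomes-negative cells. Of the 11 tested markers 0 were called, against 2.77% of all genes. Without sort 2 the difference at the downstream probe was 0.90. Endothelium, another source of Ly6c1 transcript, had 4 of 9 markers, Cdh5, Cldn5, Emcn and Tek, not well above background on any array, and its summed level was 1.16 to 1.52 in Eomes-positive cells and 1.31 to 1.997 in Eomes-negative cells. The part of either cell type in the Ly6c1 values was not tested.

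Ly6e, an interferon-inducible gene whose product is the receptor for the placental fusogen syncytin-A in the mouse, read 5.26, 5.30 and 6.66 in Eomes-positive cells and 5.36, 5.38 and 6.89 in Eomes-negative cells. The spread came from sort 3, which was the highest in both groups, and the groups overlapped. The difference was -0.14 (SE 0.58, 95% interval -1.57 to 1.29, adjusted p = 0.991). Within the sorts the differences were -0.10, -0.08 and -0.24, and the block narrowed the interval to -0.39 to 0.11 (adjusted p = 0.400). Sort 3 was also the sort with 4 ng of RNA and the youngest mice, and its arrays had a slide and a scan of their own. These cannot be told apart.

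Ly6d and Ly6k were measured at lower signals. Ly6d, a marker of early B cell and plasmacytoid dendritic cell precursors, read -0.68, 1.91 and 0.54 in Eomes-positive cells and 1.27, 2.46 and 1.17 in Eomes-negative cells, and the groups overlapped. Its difference was -1.04 (SE 0.72, 95% interval -2.82 to 0.73, adjusted p = 0.755, and 0.151 with the block). The block narrowed the interval, which is not adjusted for the number of genes, to -1.94 to -0.14. The differences within sorts ran from -1.95 in sort 1 to -0.54 in sort 2. Beside it, the summed level of B cell markers was 9.68, 14.1 and 19.1 in Eomes-positive cells and 16.02, 19.9 and 24.0 in Eomes-negative cells in sorts 1, 2 and 3. That of plasmacytoid dendritic cell markers was 74.7, 75.4 and 43.4 in Eomes-positive cells and 84.6, 91.9 and 61.1 in Eomes-negative cells. Both sums were lower in the Eomes-positive array of every sort, but the single markers did not all follow. Of the 8 tested B cell markers 4 had negative and 4 positive differences, and of the 5 tested plasmacytoid dendritic cell markers 1, Ccr9, was negative and 4 were positive (median 0.19). The part of either cell type in the Ly6d value was not tested. Ly6k, which in the mouse is known for its part in sperm function, read -0.30, -0.16 and -0.77 in Eomes-positive cells and 0.08, 0.14 and -0.06 in Eomes-negative cells. The groups did not overlap, and the difference of -0.47 (SE 0.20, 95% interval -0.96 to 0.03) had an adjusted p of 0.450, or 0.111 with the block. The interval with the block was -0.80 to -0.13. The Ly6d probe lies on the minus strand at chr15:74592551-74592610, the Ly6k probe on the minus strand at chr15:74627529-74627588 and the Ly6e probe on the plus strand at chr15:74789592-74789651 (mm9).

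**Figure D2:**
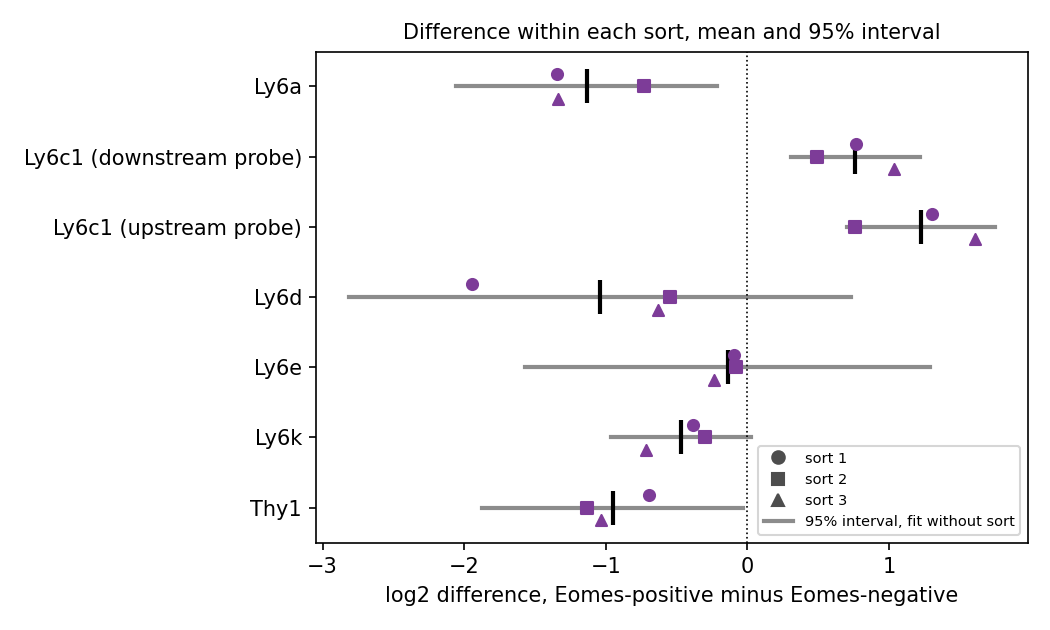
Log2 difference, Eomes-positive minus Eomes-negative, for each member probe (horizontal axis). Symbols give the value within each sort, the black tick the mean of the 3 sorts and the grey line the 95% interval of the limma fit without the sort. The symbols of both Ly6c1 probes lie right of 0 and those of the other 5 probes left of it. The intervals of that fit cross 0 for Ly6d, Ly6e and Ly6k, and those with the sort as a block, not drawn, do so for Ly6e.

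Markers of αβ T cells moved with the groups. Their summed level was 3.36, 3.30 and 3.04 in Eomes-positive cells and 11.3, 8.36 and 9.35 in Eomes-negative cells, and Cd8b1, which encodes the CD8β chain that the depletion targeted, was lower in Eomes-positive cells (difference -2.86, SE 0.36, adjusted p = 0.0194). Of the 8 listed markers 5 were on the array and 4 were tested, of which 1 was called, and 2 with the sort block, which added Foxp3, the factor of regulatory T cells (-1.09, adjusted p = 0.0495). Whether such transcripts had a part in the Thy1 and Ly6a values was not tested. For this list and those that follow, the shares over all genes were 1.2% called higher and 1.57% lower. With the sort block they were 3.66% and 4.33%. The markers of all T cells listed above had 0 of 6 called and a median difference of -0.09, and all 6 differences were negative. Their list had 11 genes, and the γδ receptor genes on it (Trdc, Trdv4, Tcrg-C1, Tcrg-C2 and Tcrg-C4) had no probe by those names. NK cell and ILC1 markers had 2 of 9 called higher, Klre1 (4.33) and Styk1 (2.62), and with the sort block 3, which added Klra4 (0.97, adjusted p = 0.0344). Their summed level was 70.9, 124 and 86.5 in Eomes-positive cells and 49.4, 127 and 36.9 in Eomes-negative cells. Erythroid markers differed between sorts, with 18.3, 161 and 209 in Eomes-positive cells and 17.8, 164 and 127 in Eomes-negative cells. Of the plasmacytoid dendritic cell markers 1 of 5 tested was called, Ccr9, a chemokine receptor that T cells also carry, with a difference of -4.23. Of the 8 tested B cell markers 0 were called without the sort block and 1 was lower with it, Cd79b, part of the B cell receptor (-0.92, adjusted p = 0.0598 without and 0.0217 with the block). Of the 4 tested endothelial markers 0 were called in either fit.

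Around the 5 measured members on chromosome 15, from 500 kb before the first to 500 kb beyond the last, the array held 44 probes, and 21 genes of that window were tested. Among the 16 that were not members, 2 were higher in Eomes-positive cells and 0 were lower (1.2% and 1.57% of all genes). One of them was Ly6m, a Ly6 relative between Ly6k and Ly6e. It read -1.999, -2.17 and -1.72 in Eomes-positive cells and -4.41, -3.87 and -3.53 in Eomes-negative cells, without overlap (difference 1.97, SE 0.27, adjusted p = 0.0233). The other was a probe at chr15:75066100-75066159 on the minus strand, described in the scanner files as predicted pseudogene 10238. It read 2.84, 2.95 and 2.80 in Eomes-positive cells and 1.62, 1.99 and 1.48 in Eomes-negative cells, a difference of 1.17 (SE 0.18, adjusted p = 0.0331). Which transcripts of the cluster bind that probe was not tested. With the sort as a block the same pair was higher and 1 further probe, NAP101442-1, was lower (-0.87, adjusted p = 0.0270). That probe was near the floor, well above background on only 1 Eomes-positive and 2 Eomes-negative arrays. Signs of both kinds stood side by side along the cluster, negative at Ly6a and positive at Ly6c1 and the pseudogene probe, and a test across the cluster as a unit was not made.

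**Figure D3:**
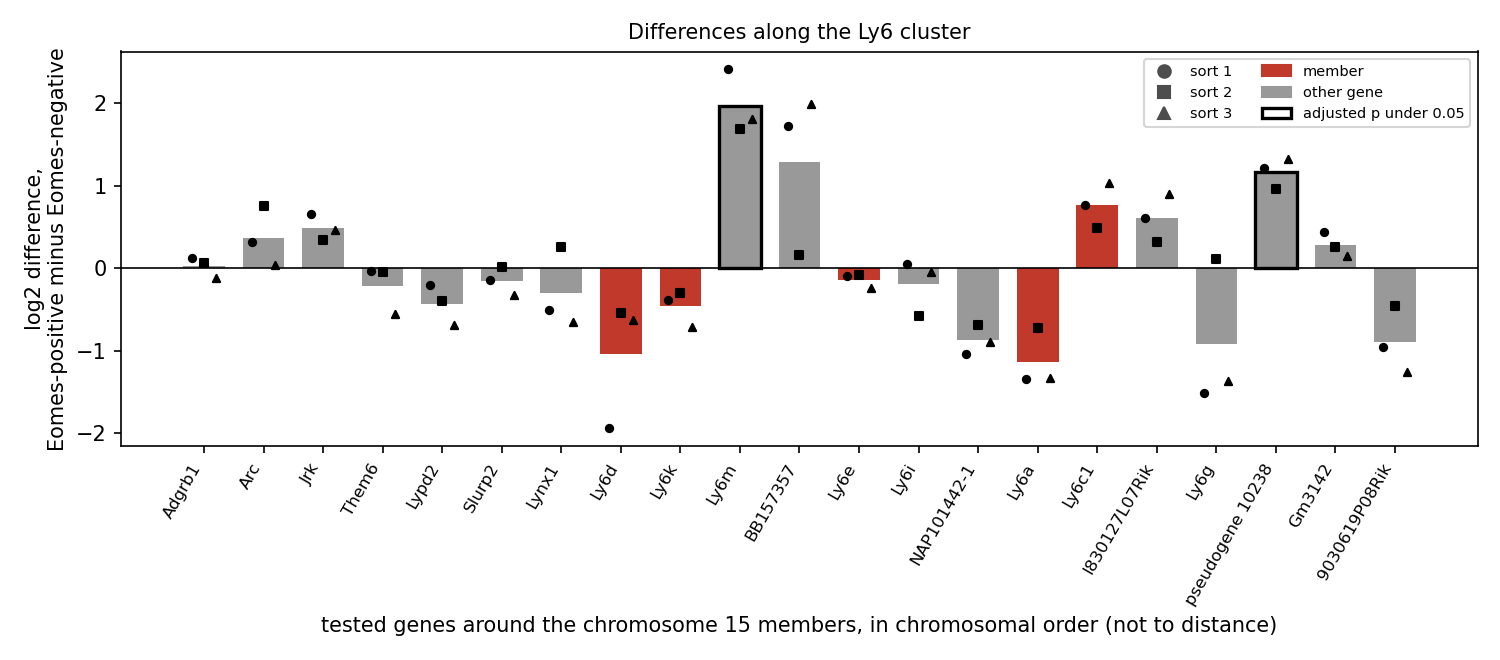
Log2 difference, Eomes-positive minus Eomes-negative, of the 21 tested genes around the chromosome 15 members, in chromosomal order and not to distance. Bars give the mean of 3 sorts, symbols the value within each sort, red bars the members, and black outlines the genes with an adjusted p under 0.05 without the block, which are Ly6m and the probe for pseudogene 10238.

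The wider Ly6/uPAR family, the proteins with the same three-finger fold, was listed with 42 relatives, of which 38 were on the array and 15 were tested. Of the 15, 1 was higher and 1 was lower (1.2% and 1.57% of all genes). The median difference was -0.22 with 12 negative signs, against -0.01 over all genes. The fit with the sort block had 2 higher and 1 lower (3.66% and 4.33% of all genes). The lower gene was Ly6g5b, which lies in the class III region of the major histocompatibility complex on chromosome 17 and not in the chromosome 15 cluster. It read -2.93, -2.66 and -2.62 in Eomes-positive cells and 1.84, 2.94 and 3.05 in Eomes-negative cells. The arrays of each group lay close together and far from those of the other group, and the difference was -5.35 (SE 0.35, adjusted p = 0.00268). The last 30 bases of the probes of both called relatives are shown, as the members with which they share a fold are measured by different sequences.
Ly6g5b: gtgtaccctcagtctggtcatatgccatat
Ly6m: gacacatgattgggaagggcaagctggtgg
The Ly6g5b probe lies on the minus strand at chr17:35251076-35251135 and the Ly6m probe on the minus strand at chr15:74708940-74708999 (mm9). The relative added by the block was Lypd6b, which was 0.83 higher (adjusted p = 0.209 without and 0.0468 with the block).

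The Ly6m call was lost with normexp background correction, where the difference was 1.25 (adjusted p = 0.114). It was also lost with the brightest probe of every gene tested whatever its signal (adjusted p = 0.0534). The call of the pseudogene probe was lost in that last setting (adjusted p = 0.113) and with the slide as a block (0.0797). Ly6g5b passed in all 12 of the settings that kept every array, of which the slide block draws nothing from the Eomes-positive array of sort 2.

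Ly6g and Ly6i differed between sorts. Ly6g, a marker of neutrophils, read -3.15, -0.65 and -2.27 in Eomes-positive cells and -1.64, -0.76 and -0.90 in Eomes-negative cells (difference -0.92, adjusted p = 0.768). Its differences within sorts 1, 2 and 3 were -1.51, 0.11 and -1.37. Ly6i read -3.82, -1.30 and -2.31 in Eomes-positive cells and -3.87, -0.72 and -2.26 in Eomes-negative cells (-0.19, adjusted p = 0.993). Both were highest in sort 2 within each group. The calprotectin gene S100a8, abundant in neutrophils, read 5.89 in Eomes-positive and 5.64 in Eomes-negative cells of that sort and -2.29 to -1.53 on the other 4 arrays. Lyz2, the lysozyme of myeloid cells, read 5.28 in Eomes-positive and 5.22 in Eomes-negative cells there. Plaur, the urokinase receptor that gives the family its name, had a difference of -2.24 that missed the threshold (SE 0.78, adjusted p = 0.303). It read -3.97, -0.90 and -3.05 in Eomes-positive cells and -0.44, -0.09 and -0.66 in Eomes-negative cells.

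**Figure D4:**
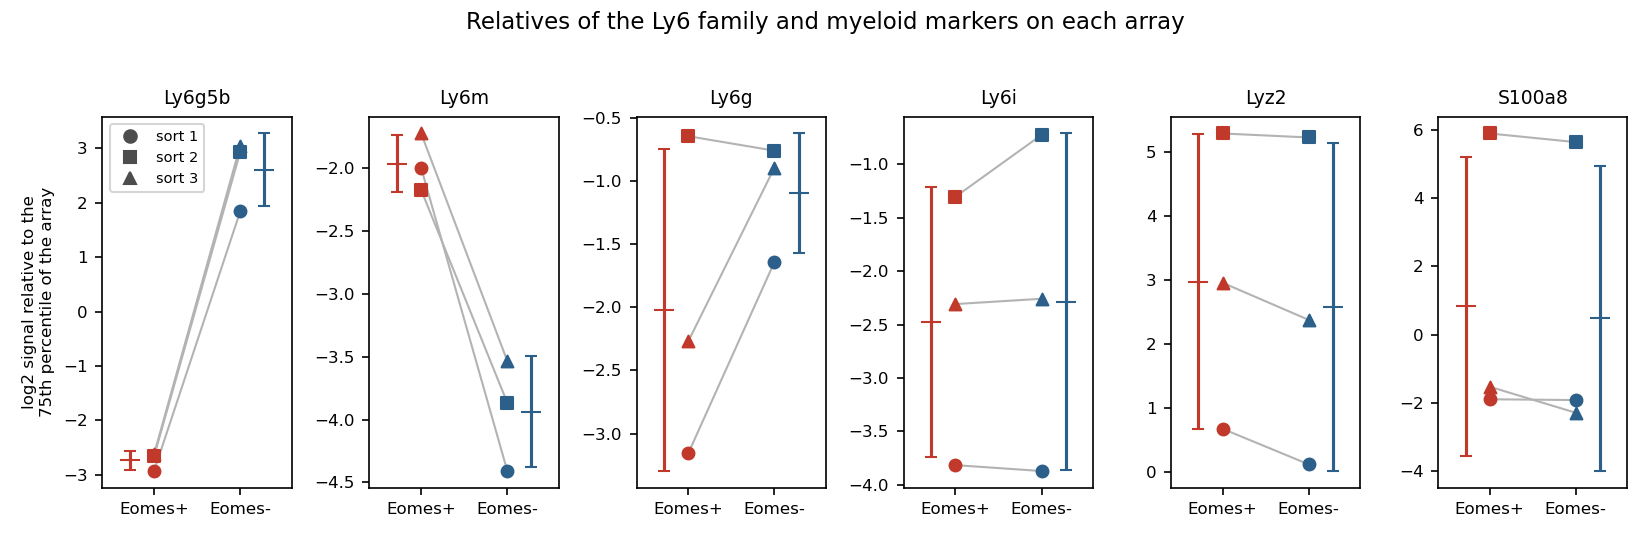
Log2 signal minus that of the array's 75th percentile (vertical axis, scaled separately for each gene) of 4 Ly6 relatives and of the myeloid markers Lyz2 and S100a8, for Eomes-positive cells (left, red) and Eomes-negative cells (right, blue). Symbols mark the sort, lines join the arrays of a sort and bars give the mean and SD of 3 arrays. Ly6g5b and Ly6m separate by group, whereas Ly6i, Lyz2 and S100a8 are highest in both arrays of sort 2.

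The enzymes that build and attach the GPI anchor, on which all members depend for their place on the membrane, showed 0 of 27 tested genes called in either direction, with or without the block, and a median difference of 0.06. Over all genes 2.77% were called without the block and 7.98% with it. Dpm3, a subunit of the mannose donor synthase, differed by 0.20 (SE 0.21, adjusted p = 0.898), and Pigp, a subunit of the enzyme of the first step, by 0.21 (SE 0.14, adjusted p = 0.744). Of 14 other GPI-anchored proteins of lymphocytes 0 were called without the block and 3 were higher with it, a direction in which 3.66% of all genes passed. The median difference was 0.26, but it was -0.01 with the filter for genes measured on all 6 arrays and 0.05 without Eomes-negative replicate 1. Cd52, a heavily glycosylated peptide of lymphocytes, differed by -0.19 (SE 0.24, adjusted p = 0.938) and Cd48, the ligand of the receptor 2B4, by 0.12 (SE 0.15, adjusted p = 0.926). The 3 called with the block, named after their values were seen, were Cd55, which limits complement (1.22, adjusted p = 0.0307), Cd160, a receptor of cytotoxic lymphocytes (0.80, adjusted p = 0.0212), and the semaphorin Sema7a (0.92, adjusted p = 0.0493). Without the block their adjusted p-values were 0.0642, 0.143 and 0.315.

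Interferon-induced genes were counted because Ly6a, Ly6c1 and Ly6e are known to respond to interferons. Of the 24 tested 0 were called in either direction, with or without the block (7.98% and 2.77% of all genes). Of the differences 11 were positive and 13 negative, and the median was -0.16. Ifi47, an interferon-induced GTPase, differed by -0.27 (SE 0.14, adjusted p = 0.583) and Ifi27l2a by -0.39 (SE 0.16, adjusted p = 0.404).

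Among 2232 protein-coding genes that were above background on all 6 arrays with an SD of at least 0.5, the 3 most like each member were found by Pearson r over the 6 arrays. These values describe arrays that share 3 sorts and 2 groups and carry no test. Thy1 was most like Lsp1 (0.994), Podnl1 (0.988) and Atp2a3 (0.985), and Ly6a was most like Daam1 (0.992), Ass1 (0.988) and Cchcr1 (0.982). The downstream Ly6c1 probe was most like Ifitm10, Gstm4 and Aoah, each at 0.989. For Ly6d the genes were Ncapg2 (0.996), Gata1 (0.991) and H2bc4 (0.986), and for Ly6k they were Chid1 (0.992), Tmem121 (0.985) and Kif3a (0.983). Ly6e, whose levels followed the sort, had 462 genes above 0.9, led by Eri3, Large2 and Dnajc17 at 0.999, while the other members had 41 to 119. Among the members, Ly6a and Thy1 had an r of 0.92, and the downstream Ly6c1 probe and Ly6k had -0.93.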

How the data were processed

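Per the labels, RNA of sorted cells was amplified once, labelled and hybridised to one-colour Agilent arrays. Per the file headers, the deposited intensity values were background-subtracted and detrended, and per the submitters' processing notes Agilent Feature Extraction 10.7.3.1 was used. Deposited flags (0 or 1, held as other columns) mark outliers, saturation and signal above background. For each probe the log2 intensities of its 4 spots, less any outlier spots, were averaged and scaled to the array's 75th percentile. Measured means that 50% or more of a probe's spots passed the flag for signal above background. Each gene was represented by its probe of highest mean, and the 16413 genes measured on 3 or more of the 6 arrays were tested. Probes took their names from RefSeq accessions (27508, of which 2017 were renamed) or from the scanner files (11921).

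The model was fitted in R 4.3.3 by limma 3.58.1 (with statmod 1.5.0 and version 1.17.8 of the data.table package), with group as the only term and Benjamini-Hochberg adjustment over all genes. An exact permutation of 3 against 3 cannot go below 0.1 two-sided. Numbers pair the samples per the labels, since each of 3 sorts gave both groups. Same-numbered deviations from the group means correlated at 0.81, 0.82 and 0.81, so values with the sort as a block are given beside results they change. The deposited value table, an intensity scaled to 75th percentiles of 1497 to 1506 with medians of 58 to 77, differed from the scanner signal of probes above background by a nearly constant log2 offset per array (interquartile range up to 0.00265) and served as an alternative. The method of that scaling is not given in the sources used here.

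Probe sequences came from the scanner files (BLAST 2.17.0, Biopython 1.88) and promoters from RefSeq. Figures used Python 3.11.15, pandas 2.3.3 and matplotlib 3.10.9. The fit was tested on simulated data. Members, lists and tests were chosen with earlier results of these data known. Named were all members, called relatives, up to 4 called genes of each list or its 2 of highest signal where none was called, neighbours, the 3 genes most like each member, and markers.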

Additional observations from a re-analysis of the deposited data

How the results depend on the processing

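Over all 16413 genes 197 were higher and 257 lower without a block, and the counts were 600 and 710 with the replicate block, 92 and 154 of 30342 with no filter on dim probes, and 168 and 166 of 13783 with genes measured on all 6 arrays. Of the 6 members, each with 1 value per gene, 0 were higher in all settings, though the upstream Ly6c1 probe passed with the block when every probe was a feature, and 0 were lower except for 2 with the replicate block and 1, Ly6a, with the slide as a block and with the replicate block without replicate 2. Leaving out 1 array or 1 sort gave 0 to 101 genes higher and 0 to 180 lower, with 0 in both directions without replicate 1 and without replicate 2 (1354 and 1267 genes at unadjusted p under 0.05), and 0 members called each time. With the block, leaving out replicate 1, 2 or 3 gave 43, 178 and 111 genes higher and 99, 274 and 179 lower. Over 26 alternatives the differences ran from -1.36 to -0.81 for Ly6a, from 0.61 to 1.04 for Ly6c1, from -2.54 to -0.41 for Ly6d, from -0.71 to -0.29 for Ly6k and from -1.23 to -0.64 for Thy1, with no change of sign. Ly6e changed sign in 3, to 0.10 without Eomes-positive replicate 1, 0.08 without Eomes-positive replicate 2 and 0.37 without Eomes-negative replicate 3, settings that leave the sorts unbalanced between the groups, and its lowest value was -0.60. In the fit without the block, leaving out 1 array or sort ended the Ly6m call in 8 of 9 cases and that of the pseudogene probe in 8 of 9. That of Ly6g5b ended in 3 of 9, the 3 that removed a whole sort. With the block, Ly6g5b stayed called without replicate 1, 2 or 3 (adjusted p = 0.0286, 0.0223 and 0.0272). Ly6m (0.0550, 0.0511 and 0.0692) and the pseudogene probe (0.103, 0.0557 and 0.0754) did not pass there. The medians of the lists ran from -0.36 to -0.06 for Ly6/uPAR relatives, -0.01 to 0.16 for anchor assembly, -0.01 to 0.35 for other GPI-anchored proteins and -0.30 to -0.04 for interferon-induced genes. With median scaling the median of all genes was 0.09, and the signs of the members held. The within-slide, block-without-a-sort and myeloid alternatives were chosen after seeing the data. The arrays number 3 a group, and signal over background did not limit the member probes.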
